A study of Canis lupus familiaris with 12 samples.

Results

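CXCL8 and 6 further inflammatory cytokine genes (CCL2, CCL5, CXCL12, IL6, IL1B and TNF) were examined in cultured dog melanoma cells, the Mi/CMM1 line, which derives from an oral tumour. All probes annotated with a dog RefSeq transcript of these genes were taken, which gave 12 of the 43603 distinct probes on the array and 7 of the 832 gene symbols that could be assigned. CXCL8 had 4 probes, all annotated with the same transcript, IL6 and TNF had 2 each, and the other members had 1. Probe sequences and positions along the transcripts were not used here.

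Total RNA was profiled on 12 one-colour Agilent arrays, 3 each of cells given piroxicam, carprofen or robenacoxib and of control cells. The drugs are nonsteroidal anti-inflammatory drugs that inhibit cyclooxygenases, the enzymes of prostaglandin synthesis. The labels conflict: the sample labels and series design give piroxicam at 116 µM and carprofen at 779 µM for 6 h, whereas the treatment protocol gives piroxicam at 779 µM and carprofen at 116 µM for 24 h. Robenacoxib is given at 156 µM in both versions. Doses of the drugs therefore differed in either version, and comparisons between drugs below are not at matched dose. The controls are labelled as receiving no treatment and no vehicle is named. All groups are the same single cell line, the design calls the 3 replicates of a group biological, and nothing more is said of how separate the cultures were.

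CXCL8 (interleukin-8) is a secreted chemokine that attracts neutrophils through the receptors CXCR1 and CXCR2, and in human melanoma it is known as a factor that tumour cells themselves make and that favours growth and vessel formation. CCL2 attracts monocytes, CCL5 attracts T cells and monocytes, and CXCL12, a stromal chemokine, signals through CXCR4. IL1B and TNF are inflammatory cytokines that switch on NF-kB, a transcription factor that in turn drives the genes of CXCL8, IL6 and CCL2, and IL6 signals through the JAK-STAT pathway.

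Between 66.2% (Piroxicam 3) and 80.0% (Carprofen 2) of the spots of an array were well above background, and the correlation across probes was 0.9882 to 0.9943 within groups, against 0.9837 to 0.9937 between groups. Control 3 and Piroxicam 3 stood at opposite ends of the first principal component (28.2% of the variance), at 32.3 and -56.5. The arrays lay on 3 slides, each scanned as a unit. Carprofen 1 lay with the 3 controls on slide 1, Piroxicam 1 and 2 with Carprofen 2 and 3 on slide 2, and Piroxicam 3 with the 3 robenacoxib arrays on slide 3. No control shared a slide with piroxicam or robenacoxib, so a fit with slide as a block reaches the controls through Carprofen 1 alone. Of 10 melanocyte genes listed, 4 had a named probe: MITF, the melanocyte transcription factor, was well above background on 12 arrays, KIT on at most 4, and the tyrosinase gene TYR and EDNRB on 0. Of 15 leukocyte genes, 5 had a named probe, and the B cell gene MS4A1 was well above background on 0 arrays. CD4, CD8A and CD34 were measured on 12 arrays, and 0 of these 3 passed the limma test with any drug (1 of 3 at an unadjusted p under 0.05 with carprofen, 0 with the other drugs). With slide as a block CD8A passed the limma test with piroxicam (log2 change 1.72, adjusted p = 0.0439) and carprofen (log2 change 1.0, adjusted p = 0.049). As ratios to the 75th percentile of an array, the signals of those 3 genes summed to 0.538 to 0.577 on piroxicam arrays, 0.577 to 0.646 on carprofen arrays, 0.377 to 0.617 on robenacoxib arrays and 0.455 to 0.484 on control arrays. Of 10 fibroblast genes 4 had a named probe (COL1A1, COL1A2, DCN and PDGFRB), and 1 rose and 2 fell with piroxicam, 0 rose and 2 fell with carprofen and 0 rose and 2 fell with robenacoxib, where 28%, 32.8% and 22.2% of all probes passed with the 3 drugs. With slide as a block, which passed 5.09%, 16.4% and 1.41% of all probes, 0 of 4 passed in limma with piroxicam (1 at an unadjusted p under 0.05), 1 with carprofen, which fell, and 0 with robenacoxib (1 at an unadjusted p under 0.05). Their signals summed to 68.9 to 72.4, 65.1 to 68.7 and 70.6 to 71.6 with the 3 drugs, against 74.3 to 76.6 on control arrays, and their part in the results below was not tested.

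The members fell into those with a probe clearly measured in these cells and those near background. CXCL8 and TNF had a probe well above background on all 12 arrays. For CXCL8 this held for all 4 probes, while the other TNF probe, annotated with the same transcript, was well above background on 0 arrays. CCL5 had a probe well above background on 8 arrays. CCL2 reached that level on 4 arrays, IL6 on 2 and CXCL12 on 1, while IL1B did so on 0. A probe was tested if at least 1 group had it well above background in all of its 3 arrays, which admitted 6 of the 12 member probes and 3 of the 7 genes: the 4 CXCL8 probes, 1 TNF probe and the CCL5 probe.

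CXCL8 was higher in cells given piroxicam or robenacoxib than in control cells, on each of its 4 probes, and with carprofen it was lower on 1 of them. On its brightest probe (A_11_P0000019918) the processed signal, in scanner units, was 1620, 1660 and 1620 with piroxicam. The same probe read 1020, 1140 and 1080 with carprofen and 1420, 1590 and 1500 with robenacoxib. It read 1090, 1040 and 1060 in control cells. Every piroxicam and robenacoxib array thus lay above every control array, and the carprofen arrays overlapped the controls in raw signal. The values below are log2 of the signal relative to the 75th percentile of its array, and changes are differences of these values tested with limma and Benjamini-Hochberg adjustment over 31996 probes. On that scale CXCL8 averaged -0.50 ± 0.04 with piroxicam, -1.11 ± 0.04 with carprofen, -0.57 ± 0.05 with robenacoxib and -0.99 ± 0.02 in control cells (SD, n = 3 each). The 3 carprofen arrays then lay below the controls, their 75th percentiles being 2246 to 2494 against 2076 to 2138 on the control arrays.

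**Figure D1:**
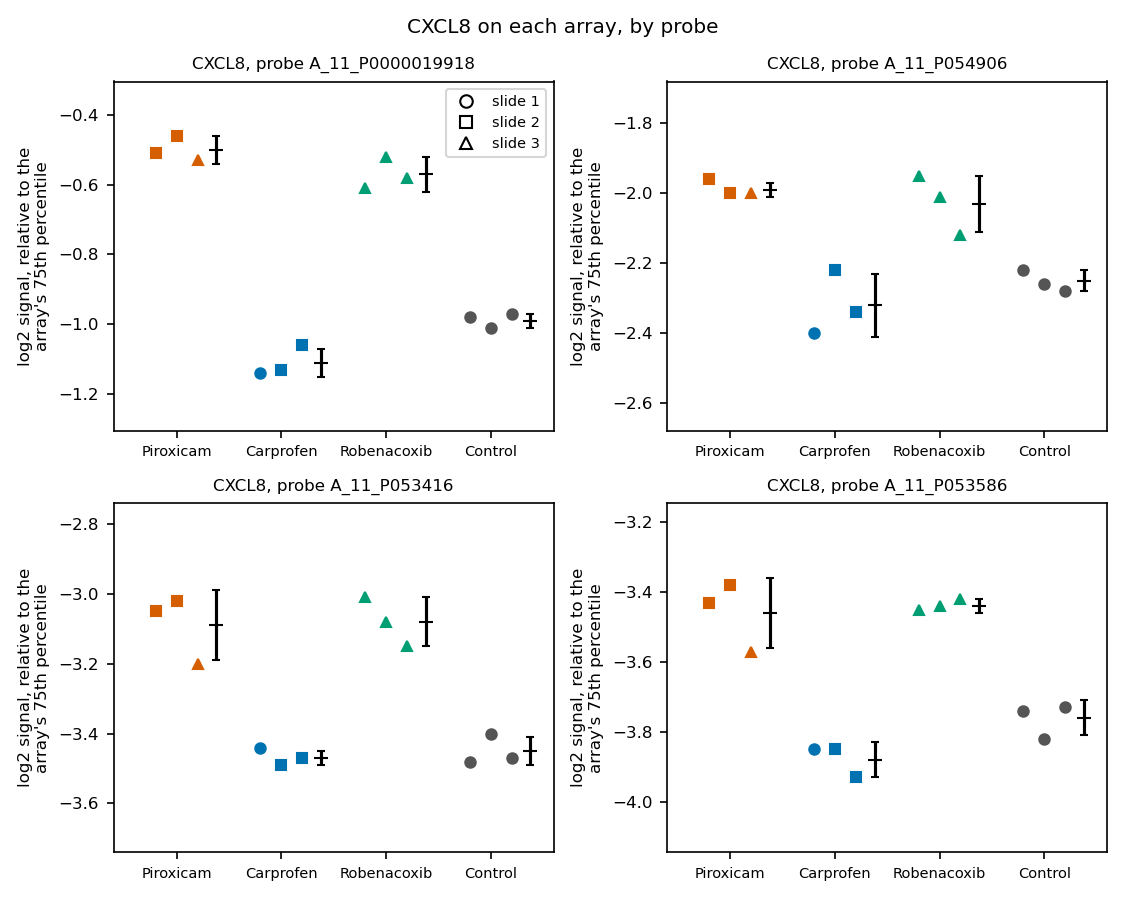
Level of CXCL8 on each array for its 4 probes, as log2 signal minus that of the array's 75th percentile (vertical axis, a span of 1 in each panel) for the 4 groups; symbols mark the slide, and the black bar is the mean ± SD of 3 arrays. In every panel all piroxicam and robenacoxib arrays lie above all carprofen and control arrays.

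With piroxicam, CXCL8 rose 1.4-fold (log2 change 0.49, 95% confidence interval 0.41 to 0.57, adjusted p = 2.62e-05, 3 arrays against 3). This change was above that of 98% of the tested probes. With slide as a block it was 0.46 (adjusted p = 0.0144). The other CXCL8 probes changed by 0.26 (A_11_P054906), 0.36 (A_11_P053416) and 0.31 (A_11_P053586), so that 4 of 4 probes passed the test and did not overlap with control. Over all tested probes 28% passed in this comparison, 11.9% upward, and 21.2% were higher without overlap. The probes thus shared a direction and differed in size, the brightest giving the largest change. Under the slide block, which passed 5.09% of all probes, A_11_P054906 no longer passed (0.16, adjusted p = 0.379), while A_11_P053416 changed by 0.45 (adjusted p = 0.0235) and A_11_P053586 by 0.40 (adjusted p = 0.0225).

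With robenacoxib, CXCL8 rose 1.34-fold (log2 change 0.42, 95% confidence interval 0.34 to 0.50, adjusted p = 6.29e-05), above the change of 96.8% of the probes. The other 3 probes changed by 0.22 (A_11_P054906), 0.37 (A_11_P053416) and 0.32 (A_11_P053586). All 4 probes passed the test and did not overlap with control, against 22.2% of all probes passing, 9.57% upward, and 16.6% higher without overlap. With slide as a block the change on the brightest probe was equally large, 0.42, but missed the threshold (adjusted p = 0.0596), in a fit that passed 1.41% of all probes. There A_11_P053416 (0.57, adjusted p = 0.0382) and A_11_P053586 (0.53, adjusted p = 0.0341) passed, and A_11_P054906 did not (0.13, adjusted p = 0.651). That probe also missed the threshold in the authors' deposited table (0.22, adjusted p = 0.0548).

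With carprofen, the brightest CXCL8 probe changed by -0.12 (log2 scale), 1.09-fold lower (95% confidence interval -0.20 to -0.04, adjusted p = 0.0246), a change above that of 27.4% of the probes. It was the only one of the 4 probes to pass, in a comparison where 32.8% of all probes passed, 19.5% downward. A_11_P053586 differed by -0.11 (adjusted p = 0.108) and likewise lay below every control. A_11_P054906 differed by -0.07 (adjusted p = 0.356) and A_11_P053416 by -0.02 (adjusted p = 0.816), both overlapping the controls. Over all probes 27.5% were lower without overlap. The fall depended on the processing: it was -0.15 with slide as a block (adjusted p = 0.078, where 16.4% of all probes passed), -0.01 in the authors' deposited table (adjusted p = 0.876), and 0.22 (adjusted p = 0.00459) when arrays were scaled to the RNA spiked in during labelling.

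Spike-in scaling moved all changes upward, shifting the median over all probes by 0.175 for piroxicam, 0.345 for carprofen and 0.30 for robenacoxib, and 93.1%, 99.7% and 99.3% of the probes passing were then higher, against 42.5%, 40.7% and 43.1% with the 75th percentile. CXCL8 then changed by 0.66 for piroxicam, 0.22 for carprofen and 0.72 for robenacoxib. Both scalings subtract a constant from each array, so changes relative to the median of all probes are the same under both by construction. For CXCL8 they were 0.51, -0.10 and 0.45, while the sign of the carprofen change itself turned.

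**Figure D2:**
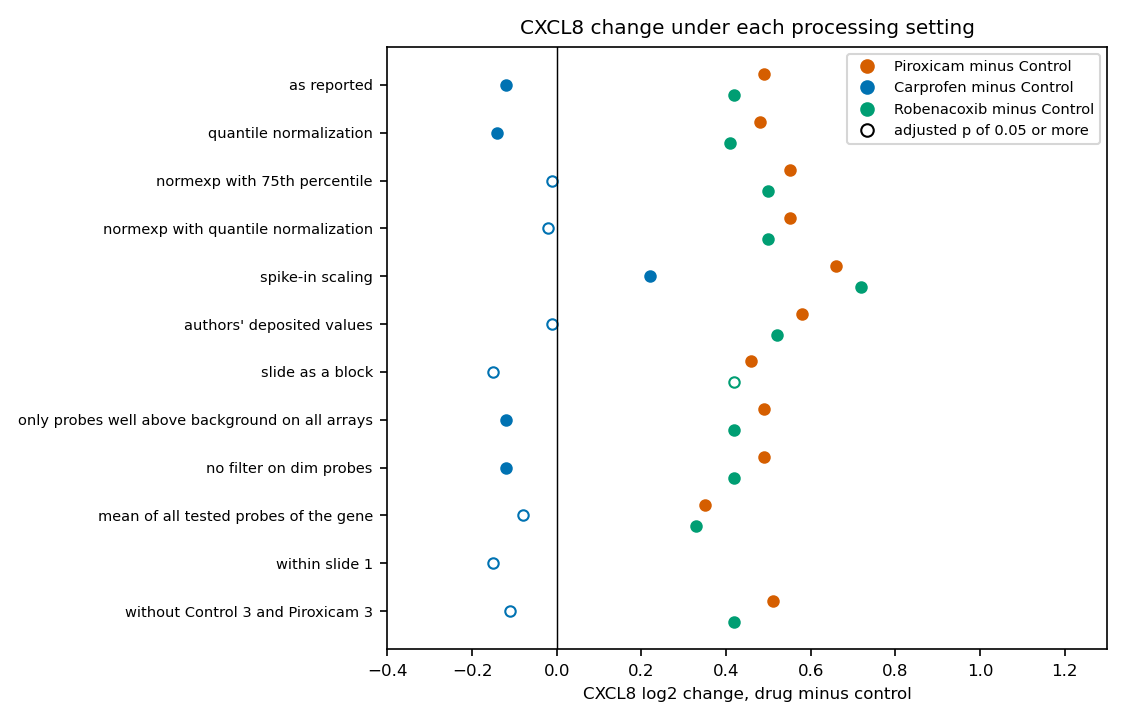
Log2 change of CXCL8 on its brightest probe (in 1 row, the mean of its tested probes), each drug minus control (horizontal axis), under each processing setting (rows); filled points passed an adjusted p of 0.05 and open points did not. The piroxicam points lie at 0.35 or above and the robenacoxib points at 0.33 or above, while the carprofen points lie between -0.15 and 0.22.

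The same control arrays served all 3 comparisons, so the drugs were also set against each other, in 3 pairs. CXCL8 was 1.53-fold lower with carprofen than with piroxicam (log2 change -0.61, 95% confidence interval -0.69 to -0.53, adjusted p = 2.3e-06), with 4 of 4 probes passing at -0.33 to -0.61, where 37.5% of all probes passed and 18.9% did so downward. This pair has arrays of both drugs on slide 2, where Carprofen 2 and 3 against Piroxicam 1 and 2 gave the same -0.61 (adjusted p = 0.0261). Within that slide 3 of 4 CXCL8 probes passed, against 14.2% of all probes, and A_11_P054906 did not (-0.30, adjusted p = 0.0592). With robenacoxib CXCL8 was 1.45-fold higher than with carprofen (log2 change 0.54, 95% confidence interval 0.46 to 0.62, adjusted p = 9.06e-05), with 4 of 4 probes passing, where 8.15% of all probes passed and 4.42% did so upward. No slide held both of these drugs, and the slide block, under which 0.253% of all probes passed, gave 0.58 (adjusted p = 0.0271), with 3 of 4 probes passing. A_11_P054906 did not pass there (0.28, adjusted p = 0.275), nor under normexp background correction with the 75th percentile (adjusted p = 0.127) or quantile normalization (adjusted p = 0.0681), nor in the authors' deposited table (adjusted p = 0.0856). Robenacoxib and piroxicam differed by -0.07 (95% confidence interval -0.15 to 0.01, adjusted p = 0.166), and 0 of 4 probes passed in limma (0 at an unadjusted p under 0.05) where 27.1% of all probes did. With slide as a block the 4 probes differed by -0.04 to 0.13 between robenacoxib and piroxicam, and 0 of 4 passed. There A_11_P053586 differed by 0.13 (95% confidence interval 0.01 to 0.25, adjusted p = 0.13). In order of level, piroxicam and robenacoxib came first and no probe passed between them. Control and carprofen followed, with 1 of 4 probes lower with carprofen. That count was 2 of 4 under quantile normalization and 0 of 4 with slide as a block. With spike-in scaling, which moved all changes upward, 4 of 4 probes passed as higher with carprofen (0.22 to 0.32).

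The 4 CXCL8 probes followed each other closely over the 12 arrays, with Pearson's r between 0.90 and 0.96, as a description of probes that share a transcript and the same labelled RNA. Of 545 other named genes measured on all 12 arrays, those most like CXCL8 were IGF2R, a receptor that carries enzymes to lysosomes (r = 0.93), MET, the hepatocyte growth factor receptor (0.93), ADM, which encodes the vasodilator peptide adrenomedullin (0.90), POMGNT2, a glycosyltransferase (0.87), and NPC1, a lysosomal cholesterol transporter (0.86). They were picked for following CXCL8 over these same arrays, so the direction of their changes, and how many passed, largely follow from the choice. Their changes were smaller than that of CXCL8. With piroxicam they were 0.18 for IGF2R, 0.15 for MET, 0.13 for ADM, 0.15 for POMGNT2 and 0.28 for NPC1. All 5 passed, where 28% of all probes did. With carprofen the 5 lay between -0.07 and -0.01 and 0 passed in limma (0 at an unadjusted p under 0.05), against 32.8% of all probes. With robenacoxib, where 22.2% of all probes passed, IGF2R (0.12), MET (0.11) and ADM (0.10) passed. NPC1 (0.11, adjusted p = 0.0557) and POMGNT2 (0.09, adjusted p = 0.128) did not.

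TNF was measured by 1 of its 2 probes. On A_11_P000001224 the signal was 166, 181 and 198 with piroxicam, 143, 206 and 202 with carprofen and 139, 173 and 164 with robenacoxib. It was 145, 138 and 136 in control cells. The 3 piroxicam arrays lay above every control, in a comparison where 47.7% of all probes had groups that did not overlap in one direction or the other, while Carprofen 1 and Robenacoxib 1 read as low as the controls. The mean difference from control was 0.24 with piroxicam (95% confidence interval -0.02 to 0.51, adjusted p = 0.156), 0.23 with carprofen (-0.03 to 0.50, adjusted p = 0.17) and 0.10 with robenacoxib (-0.17 to 0.37, adjusted p = 0.607), and 0 of the 3 passed in limma (0 at an unadjusted p under 0.05).

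The TNF values differed between slides, with Robenacoxib 1 low away from the controls' slide. Carprofen 1, on the controls' slide, read 143, and Carprofen 2 and 3, on slide 2, read 206 and 202; within slide 1 carprofen differed from control by -0.06. With slide as a block the differences were -0.24 with piroxicam (adjusted p = 0.351), -0.06 with carprofen (adjusted p = 0.756) and -0.48 with robenacoxib (adjusted p = 0.22), opposite in sign to those without the block. Leaving out Carprofen 1 gave 0.24 with piroxicam (adjusted p = 0.0424) and 0.38 with carprofen (adjusted p = 0.0109), and spike-in scaling gave 0.42, 0.58 and 0.40 with the 3 drugs (adjusted p = 0.0272, 0.0028 and 0.0201). Relative to the median of all probes TNF differed by 0.27, 0.26 and 0.13 with spike-in scaling, against 0.26, 0.25 and 0.13 with the 75th percentile. These values are equal by construction, apart from rounding. The other TNF probe, A_11_P055276, was well above background on 0 arrays, with signals of 5.03 to 6.89 with piroxicam, 5.94 to 14.3 with carprofen, 3.50 to 4.44 with robenacoxib and 2.93 to 11.9 in control cells. The 2 probes therefore did not agree on whether TNF was above background, and its measured level rests on 1 of them. The genes most like TNF over the 12 arrays were PDE6G, a phosphodiesterase subunit of photoreceptors (r = 0.81), PGB1 (0.81) and P2RX7, an ATP-gated ion channel (0.80).

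**Figure D3:**
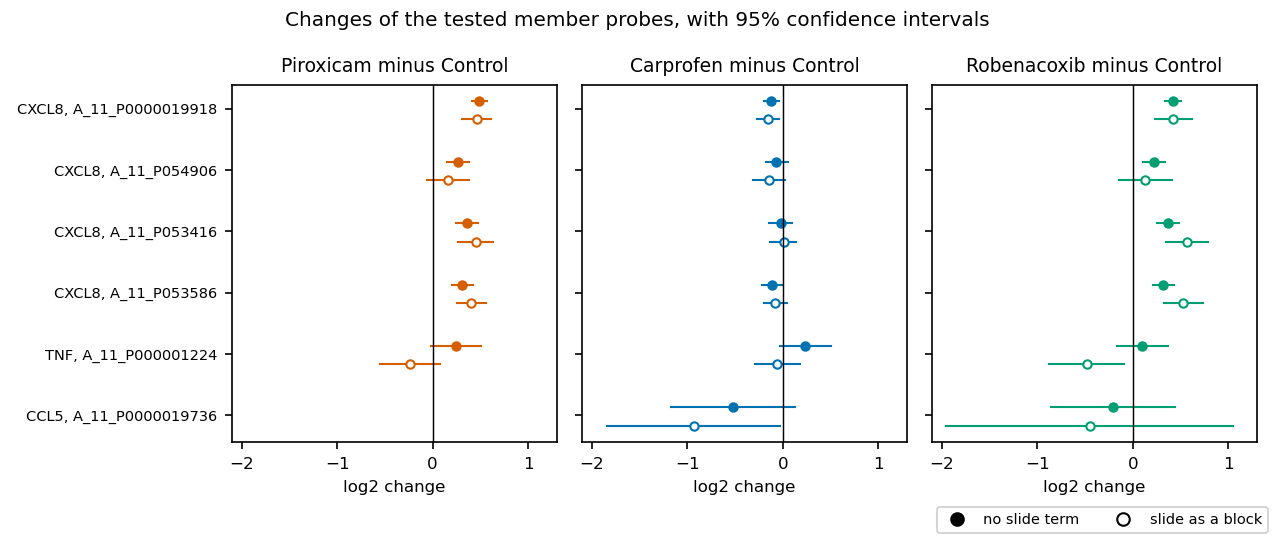
Log2 change of the 6 tested member probes (rows), each drug minus control, with 95% confidence intervals; filled points are from the fit without a slide term and open points from the fit with slide as a block. The CXCL8 probes keep their sign with piroxicam and robenacoxib, and the TNF probe changes sign between the fits with each drug. CCL5 with piroxicam is left out, since 0 of 3 piroxicam arrays measured it.

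CCL5 lay close to background. Its signal was 18.8, 25.3 and 17.2 with piroxicam, 12, 20.2 and 18.7 with carprofen, 24, 18.1 and 17.3 with robenacoxib, and 17.1, 17.8 and 32.1 in control cells. The groups overlapped throughout, and the probe was well above background on 0 of 3 piroxicam, 2 of 3 carprofen, 3 of 3 robenacoxib and 3 of 3 control arrays. The lowest signal of any probe well above background was 21.3 to 28.5 on piroxicam arrays, against 13.6 to 19.7 on control arrays. The flags alone thus do not place CCL5 lower with piroxicam. The differences from control were -0.52 with carprofen (adjusted p = 0.209) and -0.21 with robenacoxib (adjusted p = 0.668), and neither passed in limma (0 at an unadjusted p under 0.05). Because no piroxicam array measured CCL5 well above background, no difference or fold is given for that comparison. Control 3 carried the highest of the 12 values, and without it the robenacoxib difference was 0.09.

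CCL2 was well above background on 0 piroxicam, 1 carprofen, 1 robenacoxib and 2 control arrays and was not tested. Its signal was 6.59, 7.11 and 5.90 with piroxicam, 11.4, 13 and 19.1 with carprofen, 8.13 to 15.3 with robenacoxib and 15, 11.4 and 22.4 in control cells. The piroxicam values were the lowest, but they lay under the lowest signal at which any probe of those arrays was well above background (21.3, 23 and 28.5), so they bound the level and no fold is given.

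IL6 was measured on 2 of 12 arrays by A_11_P0000020013, at 36.1 on Robenacoxib 3 and 29.3 on Control 3. That probe was not well above background at 4.81 to 7.52 with piroxicam, 4.51 to 5.68 with carprofen, and on the other robenacoxib (11.1 and 13.5) and control (2.91 and 8.40) arrays. The other IL6 probe, A_11_P053561, read 2.92 to 9.11 and was well above background on 0 arrays, Robenacoxib 3 and Control 3 included, where it read 9.11 and 5.60. The probes therefore did not place IL6 above background on the same arrays.

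CXCL12 was well above background on Carprofen 1 alone, at 36.1, against 3.07 and 2.71 on the other carprofen arrays. Its signal was 4.73 to 8.44 with piroxicam, 3.34 to 9.63 with robenacoxib and 2.77 to 16.4 in control cells. IL1B was well above background on 0 arrays, with 4.61 to 6.28 with piroxicam, 2.88 to 4.44 with carprofen, 3.64 to 5.79 with robenacoxib and 2.91 to 7.89 in control cells. Before background subtraction the median pixel signal of the IL1B spot exceeded that of 87% to 100% of the 153 negative control spots, and that of CXCL12 exceeded 65.2% to 100%. The IL6 spots exceeded at least 87.9% (A_11_P0000020013) and 93.3% (A_11_P053561), and the dim TNF spot at least 66.2%. The CCL2 and CCL5 spots exceeded 100% on every array. Control 3 gave the highest value of the 12 arrays for CCL2, CCL5 and IL1B, and its negative control spots had the highest median pixel signal, 56 against 44 to 52 on the others. What part this had in those values was not tested.

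**Figure D4:**
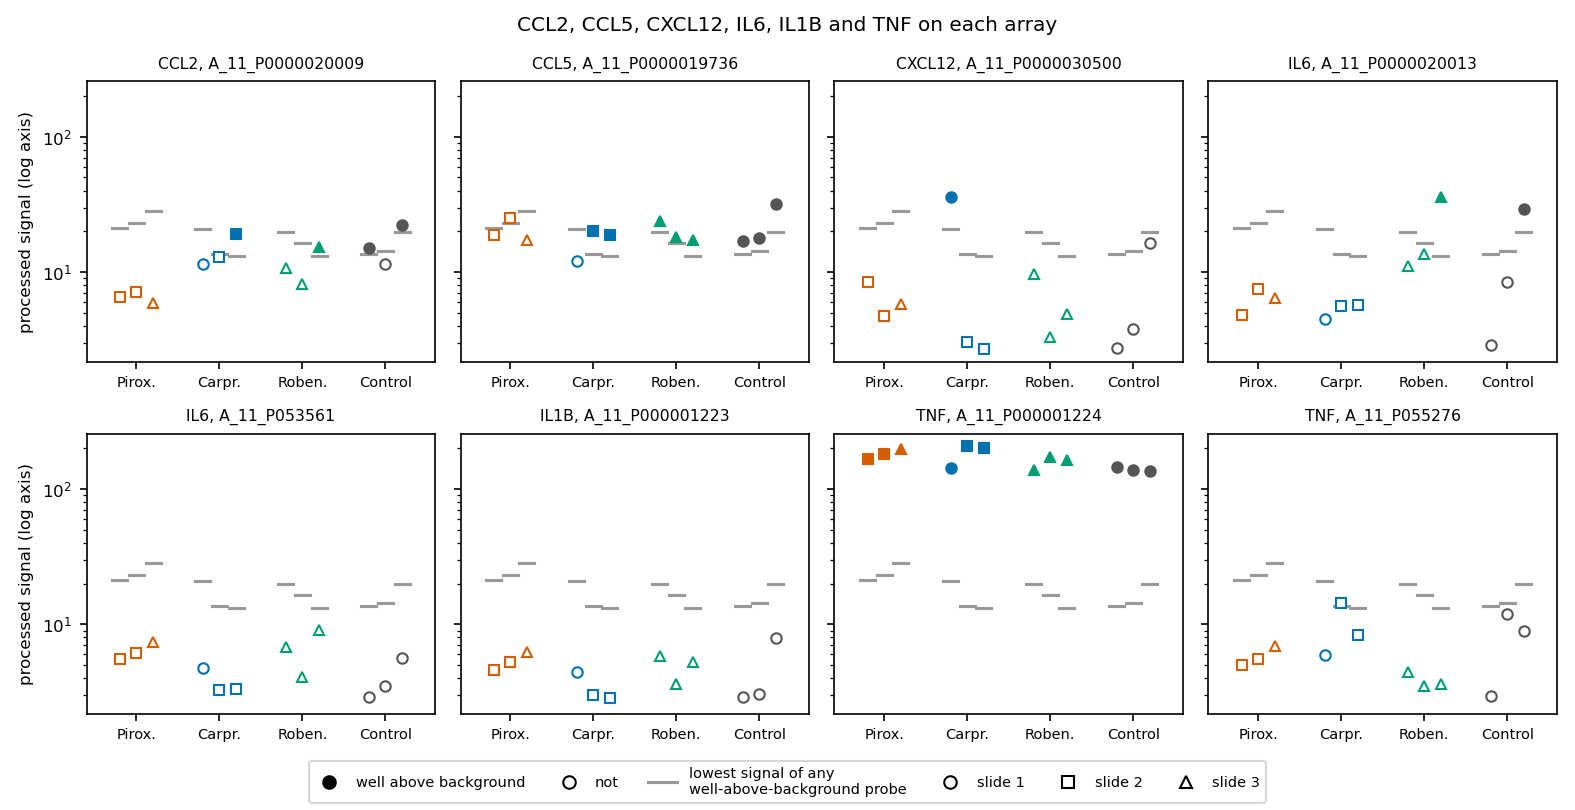
Processed signal (logarithmic vertical axis) of the 8 probes of CCL2, CCL5, CXCL12, IL6, IL1B and TNF on each array, by group; filled symbols were well above background, open symbols were not, and grey bars give the lowest signal of any probe well above background on that array. Only 1 TNF probe stands clear of the bars on all 12 arrays, at 136 to 206.

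Genes around the members were read from lists of receptors, other cytokines and signalling genes, of which many had no named probe. Of 43 chemokine and cytokine receptor genes, 11 had a named probe and 6 were tested (CXCR2, CXCR3, CCR3, CCR4, IL2RG and IL13RA2), and 0 of 6 passed in limma with any drug against control (1 of 6 at an unadjusted p under 0.05 with piroxicam, 0 with the other drugs). Of all probes 28%, 32.8% and 22.2% passed with piroxicam, carprofen and robenacoxib. CXCR2, the receptor gene for CXCL8, differed by -0.04, -0.07 and -0.21 with piroxicam, carprofen and robenacoxib (SE 0.25 each), and CXCR1 and CXCR4 had no named probe. Over the 6 genes the median difference was 0.09, 0.00 and -0.03 with the 3 drugs, against -0.023, -0.023 and -0.03 over all probes.

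Of 70 further cytokine and chemokine genes, 33 had a named probe and 18 were tested. With piroxicam 2 rose and 1 fell (median over the 18 genes 0.01), with carprofen 4 rose and 1 fell (median 0.05), and with robenacoxib 3 rose and 1 fell (median -0.03), where 11.9%, 13.3% and 9.57% of all probes rose and 16.1%, 19.5% and 12.6% fell. With slide as a block 1 rose and 0 fell with piroxicam (2 of 18 at an unadjusted p under 0.05), 2 rose and 0 fell with carprofen, and 0 passed in limma with robenacoxib (7 of 18 at an unadjusted p under 0.05). IL5, which drives eosinophil growth, stood at -2.60, -2.55 and -2.56 with piroxicam, -3.01, -3.06 and -3.14 with carprofen, -2.89, -2.87 and -2.89 with robenacoxib and -3.07, -3.02 and -2.96 in control cells. It rose by 0.45 with piroxicam (adjusted p = 7.54e-05), and the slide block gave 0.54 (adjusted p = 0.0107). The rise of 0.13 with robenacoxib (adjusted p = 0.0383) did not pass under the slide block (0.21, adjusted p = 0.294), nor in 8 of 12 fits that left out 1 array. In all, 16 of 23 alternatives lost that call. The carprofen difference of IL5 was -0.05 (adjusted p = 0.349).

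Further cytokine genes passed with carprofen. CCL25, a chemokine of thymus and gut, rose by 0.43 (adjusted p = 0.0112) but did not pass under the slide block (0.42, adjusted p = 0.123), with -4.37, -4.34 and -4.37 on the carprofen arrays against -4.73, -4.90 and -4.74 in control cells. The interferon alpha gene IFNA7 was tested on 1 of its 2 probes, the other not being well above background on all arrays of any group. On the tested probe it rose by 0.43 (adjusted p = 0.00451), and by 0.61 under the slide block (adjusted p = 0.00757). The interferon alpha genes are near-identical copies and the probe may read several. CSF2, the granulocyte-macrophage growth factor, fell by 0.75 (adjusted p = 0.0243) on 1 of its 2 probes, with -6.18, -5.89 and -6.01 on the carprofen arrays against -5.08, -5.64 and -5.11 in control cells. It did not pass under the slide block (-0.90, adjusted p = 0.104) or without Control 1, Control 3, Carprofen 1 or Carprofen 3 (adjusted p up to 0.0825). In all, 10 of 24 alternatives lost the CSF2 call. The calls not yet named, given here after their values were seen, were those of CD40LG, the ligand of CD40, IL12A, a subunit gene of interleukin-12, and CCL17, a T cell chemokine. On 1 of its 2 probes CD40LG rose in all comparisons with control, the log2 changes being 0.19 (piroxicam), 0.21 (carprofen) and 0.13 (robenacoxib), and it passed under the slide block with carprofen (0.26, adjusted p = 0.0157) but not with piroxicam (0.28, adjusted p = 0.0585) or robenacoxib (0.27, adjusted p = 0.175). IL12A rose by 0.15 with carprofen and 0.24 with robenacoxib, and neither call held under the slide block (adjusted p = 0.372 and 0.661). CCL17 fell by 0.15 with piroxicam and by 0.15 with robenacoxib, and under the slide block it differed by -0.10 (adjusted p = 0.447) and -0.03 (adjusted p = 0.897).

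Of 54 genes of NF-kB, AP-1 and Toll-like receptor signalling, 13 had a named probe and 10 were tested. With piroxicam 1 rose and 1 fell, with carprofen 0 rose and 1 fell, and with robenacoxib 1 rose and 0 fell, with medians over the 10 genes of 0.06, -0.09 and -0.04. Over all probes 11.9%, 13.3% and 9.57% rose and 16.1%, 19.5% and 12.6% fell with the 3 drugs. NFKB1, which encodes an NF-kB subunit, differed by -0.11, -0.10 and -0.07 with the 3 drugs and did not pass. TLR7, a sensor of single-stranded RNA, rose by 0.61 with piroxicam (adjusted p = 0.0136) and by 0.61 with robenacoxib (adjusted p = 0.0174). Neither TLR7 call held under the slide block (0.83, adjusted p = 0.14, and 0.76, adjusted p = 0.358) or without Control 3 (0.52 and 0.51, adjusted p = 0.0518 and 0.0622), and the robenacoxib call also ended without Robenacoxib 2 (0.56, adjusted p = 0.0586) or Robenacoxib 3 (0.55, adjusted p = 0.0599). HMGB1, a chromatin protein that acts as an alarm signal outside cells, fell by 0.13 with piroxicam (adjusted p = 0.0155) and by 0.17 with carprofen (adjusted p = 0.0047) relative to the 75th percentile, and with spike-in scaling both signs turned (0.04 and 0.18). Relative to the median of all probes it differed by -0.11 and -0.14 with spike-in scaling, against -0.11 and -0.15 with the 75th percentile, equal by construction apart from rounding. The slide block ended both calls (adjusted p = 0.274 and 0.0522).

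PTGS2, the inducible cyclooxygenase gene and a target of these drugs, fell by 0.49 with piroxicam (adjusted p = 0.000108) and rose by 0.47 with carprofen (adjusted p = 0.000111) and by 0.30 with robenacoxib (adjusted p = 0.00193), the last not passing under the slide block (0.49, adjusted p = 0.0561). With piroxicam CXCL8 was thus higher and PTGS2 lower, with carprofen PTGS2 was higher and CXCL8 slightly lower on 1 probe, and with robenacoxib both were higher. PTGS1, the other cyclooxygenase gene, was tested on 1 of its 2 probes and did not pass with any drug against control. It stood at -6.55, -6.2 and -3.92 with piroxicam and -6.53, -6.09 and -5.89 with carprofen. With robenacoxib it stood at -5.47, -5.52 and -6.11, and in control cells at -6.39, -6.94 and -6.29.

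**Figure D5:**
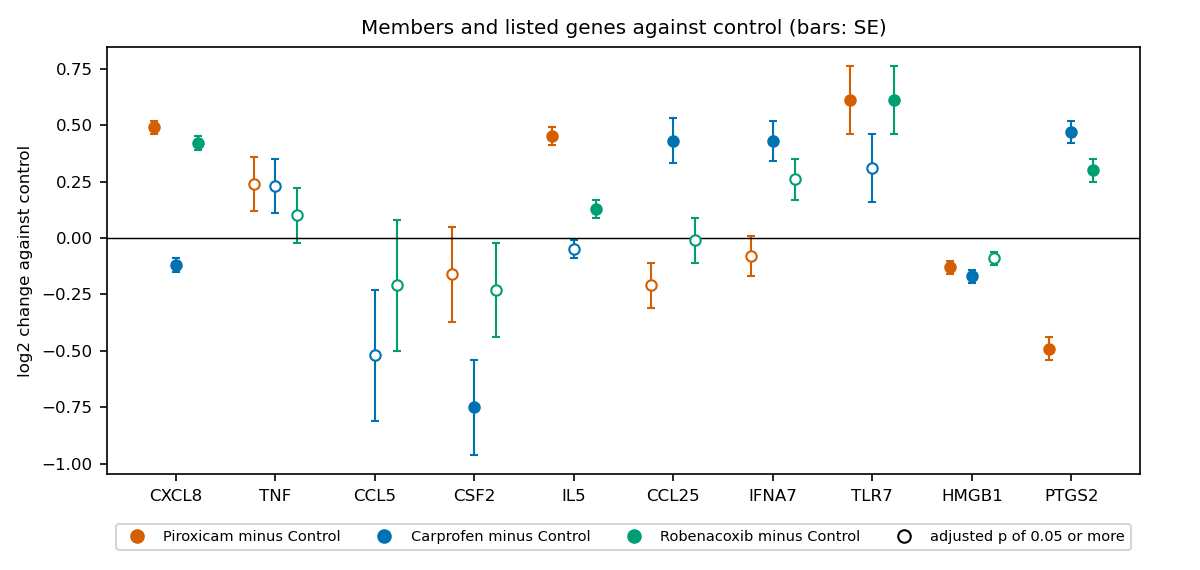
Log2 change against control, with its standard error, of CXCL8, TNF, CCL5, CSF2, IL5, CCL25, IFNA7, TLR7, HMGB1 and PTGS2 for the 3 drugs; filled points passed an adjusted p of 0.05, and CCL5 has no piroxicam point. CXCL8 and IL5 are highest with piroxicam (0.49 and 0.45), and PTGS2 is lowest with piroxicam (-0.49).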

How the data were processed

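Scanner output came from Feature Extraction 10.7.3.1 (protocol GE1_107_Sep09), per the file headers. Its deposited intensity values are background-subtracted within each array, with no normalization from array to array. The authors' deposited log2 values, for which the submitters' processing notes name limma 3.24.15, served as an alternative. The well-above-background flags are those deposited.

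The software was R 4.3.3 with limma 3.58.1 and the data.table package (1.17.8). The log2 processed signal had each array's 75th percentile subtracted. Control spots and outlier-flagged spots were left out (0 member spots were flagged, 0 spots were saturated). A probe was tested if at least 1 group had it well above background in all of its 3 arrays (31996 of 43603; 28347 on all 12). One limma model (lmFit, eBayes) over 12 arrays gave all comparisons, two-sided, with Benjamini-Hochberg adjustment within each and a threshold of 0.05. Standard errors had a median of 0.0526, and precision is limited by the number of arrays. The p-values rest on the spread among arrays of the same group. Piroxicam and carprofen arrays each spanned slides, while control and robenacoxib arrays did not. That spread therefore holds only part of the differences between slides.

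RefSeq gene records (UU_Cfam_GSD_1.0), taken for names alone, named 1313 probes with 832 symbols and left 42290 unnamed. For each gene the values are those of its brightest tested probe, by mean over arrays. Besides all member probes, up to 4 genes per list that passed against control are named, largest change first, and the genes most like CXCL8 (5) and TNF (3) by Pearson's r. The members and lists were chosen with earlier results of these data known. Alternatives were quantile normalization, normexp (offset 50, on median signals, since the mean signal was not used here) with either scaling, scaling to 8 spike-in probes, the authors' values, slide or replicate blocks, fits within a slide, other filters on dim probes, the mean of a gene's probes, and leaving out arrays. On simulated data the model recovered 43.3% to 47.8% of log2 changes of 0.3 against control. It recovered 67.2% to 70.1% of changes of 0.5 and 75.8% to 80.3% of changes of 1. The simulated arrays held no slide differences, so the simulation cannot show how slides affect the tests.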

Additional observations from a re-analysis of the deposited data

How the results depend on the processing

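On its brightest probe CXCL8 kept its direction and its call under all 23 alternatives with piroxicam against control, all 24 for carprofen against piroxicam and all 23 for robenacoxib against carprofen. For robenacoxib against control it did so under 22 of 23, the exception being slide as a block (0.42, adjusted p = 0.0596). The carprofen change against control held under 12 of 24. It missed the threshold under normexp with the 75th percentile (-0.01), normexp and quantile normalization (-0.02), the authors' values (-0.01), slide as a block (-0.15), the mean of its probes (-0.08), within slide 1 (-0.15), without Control 3 and Piroxicam 3 together (-0.11, chosen after seeing the data) and in 4 of 12 fits that left out 1 array, and turned to 0.22 with spike-in scaling. Spike-in scaling also turned robenacoxib against piroxicam to 0.05. Leaving out each array in turn gave 0.47 to 0.51 with piroxicam, -0.15 to -0.11 with carprofen and 0.39 to 0.44 with robenacoxib against control, and -0.64 to -0.59, -0.10 to -0.05 and 0.51 to 0.56 for carprofen against piroxicam, robenacoxib against piroxicam and robenacoxib against carprofen. The causes were not tested.

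Probes called with piroxicam, carprofen and robenacoxib numbered 8950, 10494 and 7106. They numbered 5753, 5447 and 4569 under normexp with the 75th percentile, 13753, 24157 and 21836 with spike-in scaling, and 1629, 5232 and 451 with slide as a block. With carprofen they numbered 6820 with normexp and quantile normalization, 6472 in the authors' values and 1 within slide 1. Without Control 3 and Piroxicam 3 they numbered 4780 with piroxicam and 4665 with robenacoxib. Leaving out 1 array gave 6454 to 9459, 8070 to 10478 and 4626 to 7616, the lowest robenacoxib count being without Control 2. Signs also turned for CCL5 with robenacoxib (0.12 under normexp with the 75th percentile, 0.09 with spike-in scaling and without both arrays, and -0.38 to 0.09 when 1 array was left out, the highest without Control 3). They turned for TNF with slide as a block (-0.24, -0.06 and -0.48) and within slide 1 (-0.06 with carprofen), and for HMGB1 with spike-in scaling (0.04 and 0.18), a scaling that shifts all probes alike.

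Same-numbered arrays of different groups had deviations from their group means correlated at -0.45 to 0.20, and differently numbered arrays at -0.31 to 0.57. Of 12 arrays, 1 correlated best with its own number. These deviations also hold differences between slides and single arrays, so they cannot settle whether same-numbered cultures were paired. With the replicate number as a block CXCL8 changed by 0.49 (adjusted p = 0.000377), -0.12 (0.0471) and 0.42 (0.000729) with piroxicam, carprofen and robenacoxib, and the calls of IL5 with robenacoxib (0.13, adjusted p = 0.0803) and CSF2 with carprofen (-0.75, adjusted p = 0.0526) were lost. Signal near background limits CCL2, CXCL12, IL6 and IL1B, which were not tested, and CCL5 with piroxicam.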
